A study of Mus musculus with 12 samples.

Results

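The genes described here are 41 ribosome biogenesis factors, chosen by name from the 17955 genes of the deposited expression table, and all 41 had enough counts to be tested among 12903 genes. They cover subunits of RNA polymerase I, the small nucleolar ribonucleoproteins (snoRNPs) that modify ribosomal RNA, abundant multifunctional nucleolar proteins, and assembly factors of the small and large ribosomal subunits. Bulk RNA came from regulatory T cells (Tregs) of 7-week-old C57BL/6 mice, purified from spleen and lymph node by flow cytometry on CD4, CD25 and YFP. The mice called cKO were Foxp3YFP-creTKTfl/fl, so that Cre, driven by the Treg factor Foxp3, deletes the gene of transketolase, which acts in the pentose phosphate pathway. The WT mice were Foxp3YFP-creTKT+/+, so mice of all groups carried the Foxp3-driven Cre with YFP. DMαKG, the dimethyl ester of α-ketoglutarate, or vehicle was given in the drinking water, starting while the mothers were pregnant and lasting until the offspring were adult. There were 4 groups of 3 libraries: cKO with DMαKG, WT with DMαKG, cKO with vehicle and WT with vehicle.

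Ribosome production starts in the nucleolus, where RNA polymerase I transcribes the precursor of most ribosomal RNAs. Box C/D snoRNPs methylate this precursor and box H/ACA snoRNPs convert chosen uridines to pseudouridine, each guided by a small nucleolar RNA. Assembly factors then fold, cut and package the RNA with ribosomal proteins into the small and the large subunit. In T cells the output of this pathway is known to rise on activation and growth, and many of its genes are known targets of the transcription factor MYC.

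Total estimated counts per library ran from 1.57e+07 to 1.89e+07. Tkt was lower in cKO than in WT libraries, with log2 fold changes of -2.08 with DMαKG (edgeR adjusted p = 0.00389) and -1.72 with vehicle (0.0148). The 7 Treg markers summed to between 3743 and 6444 CPM (read counts relative to the TMM-scaled library size) in all 12 libraries. Markers of other cells were low but present, the 5 B cell markers summing to at most 34.3 CPM and the 10 myeloid and dendritic markers to at most 133 CPM. Libraries of 1 group did not always lie together. On the first principal component, which held 29.0% of the variance, cKO DMαKG replicate 3 lay at 47.0, while WT DMαKG replicate 3, cKO vehicle replicate 4 and WT vehicle replicate 4 lay together at -29.7, -32.8 and -32.9. Values without them stand beside the main counts and beside several single genes.

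The factors were well expressed. Their mean levels over the 12 libraries, in TPM (deposited values scaled by transcript length, so that genes can be set side by side), had a median of 57.9, against 21.9 for all tested genes. They ran from 1661 TPM for Npm1 to 10.6 TPM for Cd3eap, with 8 of 41 at 100 or more and 4 of 41 under 20. Over the 12 libraries the coefficient of variation of CPM ran from 6.69% to 28.6%, the highest being that of Nhp2, a core protein of the box H/ACA particle.

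**Figure D1:**
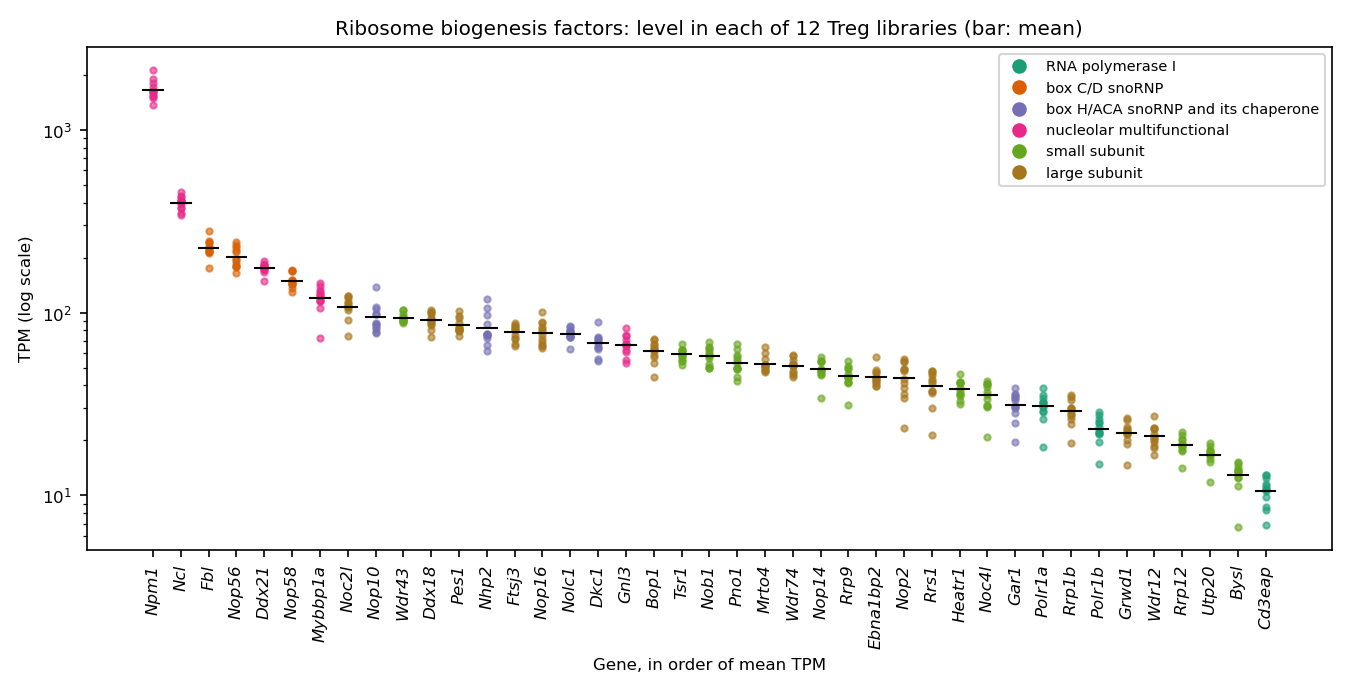
TPM of each of the 41 factors (log axis), one dot per library, 12 libraries, with the mean as a bar and genes in order of mean TPM. Npm1, at 1661 TPM on average, stands above the rest. The 3 RNA polymerase I subunits among the 41 lie in the lower part, at 10.6 to 30.7 TPM.

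By role, the RNA polymerase I subunits were the least abundant group, with a median of 23.2 TPM. Polr1a, the largest subunit of the enzyme, had 28.5, 32.1 and 18.5 TPM in cKO DMαKG libraries, 26.2, 29.1 and 38.5 TPM in WT DMαKG libraries, 32.3, 35.3 and 32.3 TPM in cKO vehicle libraries, and 30.5, 30.8 and 34.0 TPM in WT vehicle libraries. Its lowest value was in cKO DMαKG replicate 3 and its highest in WT DMαKG replicate 3. The box C/D proteins ran from 149.9 TPM for Nop58 to 227 TPM for Fbl. Fbl, fibrillarin, the methyltransferase of the box C/D particle, had 217, 243 and 176 TPM in cKO DMαKG libraries, 240.3, 247 and 229.7 TPM in WT DMαKG libraries, 215, 228 and 280.2 TPM in cKO vehicle libraries, and 212, 219 and 218 TPM in WT vehicle libraries. In TPM its lowest value was in cKO DMαKG replicate 3 and its highest in cKO vehicle replicate 4. In CPM the highest was the same library, at 149. There cKO DMαKG replicate 3, at 109.8, was above the WT vehicle libraries, at 108, 105 and 104.

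The box H/ACA group, which also holds the snoRNP chaperone Nolc1, ran from 31.3 TPM for Gar1 to 94.1 TPM for Nop10. Nop10, a small core protein of the particle, had 83.7, 81.4 and 108 TPM in cKO DMαKG libraries, 86.4, 77.2 and 98.8 TPM in WT DMαKG libraries, 85.9, 77.9 and 138 TPM in cKO vehicle libraries, and 87.8, 98.8 and 105 TPM in WT vehicle libraries. Its levels overlapped among all 4 groups. The multifunctional nucleolar proteins included the pair at the top, Npm1 (nucleophosmin, a histone and ribosome chaperone) and Ncl (nucleolin). Npm1 had 1724, 1607 and 2128 TPM in cKO DMαKG libraries, 1793, 1624 and 1537 TPM in WT DMαKG libraries, 1360.4, 1526 and 1898 TPM in cKO vehicle libraries, and 1636, 1597 and 1496 TPM in WT vehicle libraries. The cKO groups held both its lowest and its highest library.

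The 11 small subunit factors ran from 13.0 TPM for Bysl to 93.7 TPM for Wdr43, and the 14 large subunit factors from 21.1 TPM for Wdr12 to 108 TPM for Noc2l. Wdr43, a protein of the small subunit processome, had 90.2, 92.4 and 90.2 TPM in cKO DMαKG libraries, 103, 103 and 98.3 TPM in WT DMαKG libraries, 91.1, 89.5 and 95.1 TPM in cKO vehicle libraries, and 94.6, 89.6 and 87.3 TPM in WT vehicle libraries. In TPM the 3 WT DMαKG libraries were above all others, but not in CPM. There they had 169, 162 and 143, against 170.0 in cKO DMαKG replicate 3 and 151 in cKO vehicle replicate 4. Noc2l, a nucleolar protein of large subunit assembly, had 90.8, 107 and 74.8 TPM in cKO DMαKG libraries, 107, 113 and 124 TPM in WT DMαKG libraries, 109, 124 and 109 TPM in cKO vehicle libraries, and 119.5, 114 and 104 TPM in WT vehicle libraries. The cKO DMαKG group again held the lowest library, replicate 3.

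Because many of these genes are known MYC targets, their promoters were searched for CACGTG, the canonical E-box that MYC binds with its partner MAX (the motif reads the same on both strands). RefSeq windows (GRCm38.p6) from 250 bases before to 50 after the start were on hand for 36 of the 41 genes, and 9 of them (25.0%) held the motif, against 11.4% of 10373 tested genes with a window. The 9 were Cd3eap, Mybbp1a, Wdr43, Utp20, Tsr1, Pno1, Pes1, Nop2 and Grwd1. Within the bases before the start alone the share was 5.56%, with Cd3eap and Nop2 as the holders, against 9.55% of tested genes. The other 7 genes carried the motif only after the start, and a match of letters is a description and says nothing of binding. Sites of 3 genes that recur in the comparisons are shown, read 5′ to 3′ on the gene's strand with the E-box in capitals. They lie 218 bases before and 21 after the start of Cd3eap (chr7:19359684-19359713 and chr7:19359446-19359475, minus strand), 60 before that of Nop2 (chr6:125131811-125131840, plus strand) and 18 after that of Wdr43 (chr17:71616220-71616249, plus strand), each counted from the motif's first base.
Cd3eap, upstream: gttggaagaaacCACGTGagcaaagttgtc
Cd3eap, downstream: accccttggatcCACGTGgtgggcagcgtt
Nop2: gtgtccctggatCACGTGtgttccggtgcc
Wdr43: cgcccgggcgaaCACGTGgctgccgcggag

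Another shared feature was that some of the genes host snoRNA genes. In the annotation 7 of the 41 genes (17.1%) had a snoRNA gene within their span, against 300 of 12811 tested protein-coding genes (2.34%). Nop56, the box C/D scaffold protein, held 5 such genes, among them Snord57 and Snord110, and its partner Nop58 held 4, among them Snord11 and Snord70. Gnl3 (nucleostemin) and Wdr43 held 3 each, Ncl held Snora75 and Snord82, Tsr1 held Snord91a, and Dkc1, the pseudouridine synthase, held 1. The snoRNAs themselves were not analysed here. In addition 13 of the 41 genes overlapped another gene of the table, among them Cd3eap (with Ercc1), Nop56 (with Idh3b), Gnl3 (with Glt8d1) and Noc2l (with Klhl17 and Samd11). Whether counting used strand is unknown here, so their values are uncertain.

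The first comparison asked how loss of transketolase alone moved these genes. In Tregs of vehicle mice most of the factors stood slightly higher in cKO than in WT, but by so little that none passed the test. Of 41 factors 37 (90.2%) had a log2 fold change above 0, against 51.6% of all tested genes, with a median of 0.12 against 0.01. All 3 RNA polymerase I subunits, 5 of 5 box H/ACA genes, 5 of 5 nucleolar genes, 10 of 11 small subunit and 12 of 14 large subunit factors were above 0, with role medians between 0.09 and 0.21. At an edgeR adjusted p below 0.05 over all genes 0 of 41 passed, where 0.0620% of tested genes did, and DESeq2 and limma voom also called 0. An unadjusted p below 0.05 was reached by 2 factors (4.88%), against 7.29% of tested genes. Groups did not overlap for 8 factors that were higher (19.5%, against 8.29% of tested genes) and for 0 that were lower (against 7.01%); the 8 were Polr1b, Cd3eap, Gar1, Mybbp1a, Noc4l, Rrp1b, Rrs1 and Grwd1.

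Cd3eap, a subunit found in RNA polymerase I only, had 12.3, 13.0 and 12.8 CPM in cKO vehicle libraries, against 10.4, 10.05 and 10.2 CPM in WT vehicle libraries. Every cKO library was above every WT library, with little spread within a group. The log2 fold change was 0.32 (SE 0.13, 95% interval 0.04 to 0.59, unadjusted p = 0.0262, edgeR adjusted p = 0.585). Noc4l, which acts with Nop14 in small subunit assembly, had 33.4, 37.5 and 39.1 CPM in cKO vehicle libraries, against 26.9, 28.4 and 30.9 CPM in WT vehicle libraries. The groups again did not overlap, and the log2 fold change was 0.35 (SE 0.16, unadjusted p = 0.0488, edgeR adjusted p = 0.681). At the other end, Ddx18, an RNA helicase of the large subunit pathway, had 87.3, 87.2 and 91.5 CPM in cKO vehicle libraries, against 98.3, 94.3 and 86.8 CPM in WT vehicle libraries (-0.07, edgeR adjusted p = 0.970). Nop56 had 148, 164 and 159 CPM in cKO vehicle libraries, against 183, 161 and 132 CPM in WT vehicle libraries (-0.02, adjusted p = 0.994). Both of these overlapped widely between the groups, and the sign for Nop56 was positive, at 0.02, when cKO vehicle replicate 2 was left out and at 0.10 when WT vehicle replicate 2 was.

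The count of 37 rested on part of the libraries. Without cKO vehicle replicate 4 it was 27 with a median of 0.07, and without the 3 libraries together on the first component it was 22 with a median of 0.02. Other measures also differed in this comparison. The 25 proliferation genes were below 0 in 25 of 25 cases, with a median of -0.29, and summed to 910.2, 1371 and 2344 CPM in cKO vehicle libraries, against 1769.7, 1665 and 2093 CPM in WT vehicle libraries. Myeloid and dendritic markers summed to 34.2 to 61.8 CPM in cKO vehicle libraries, against 48.8 to 133 CPM in WT vehicle libraries, with 3 of 10 markers under 1 CPM in all cKO libraries and 0 of 10 in all WT libraries. Their part in the result was not tested, and in bulk RNA fewer cells of a type and less RNA per cell cannot be told apart.

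**Figure D2:**
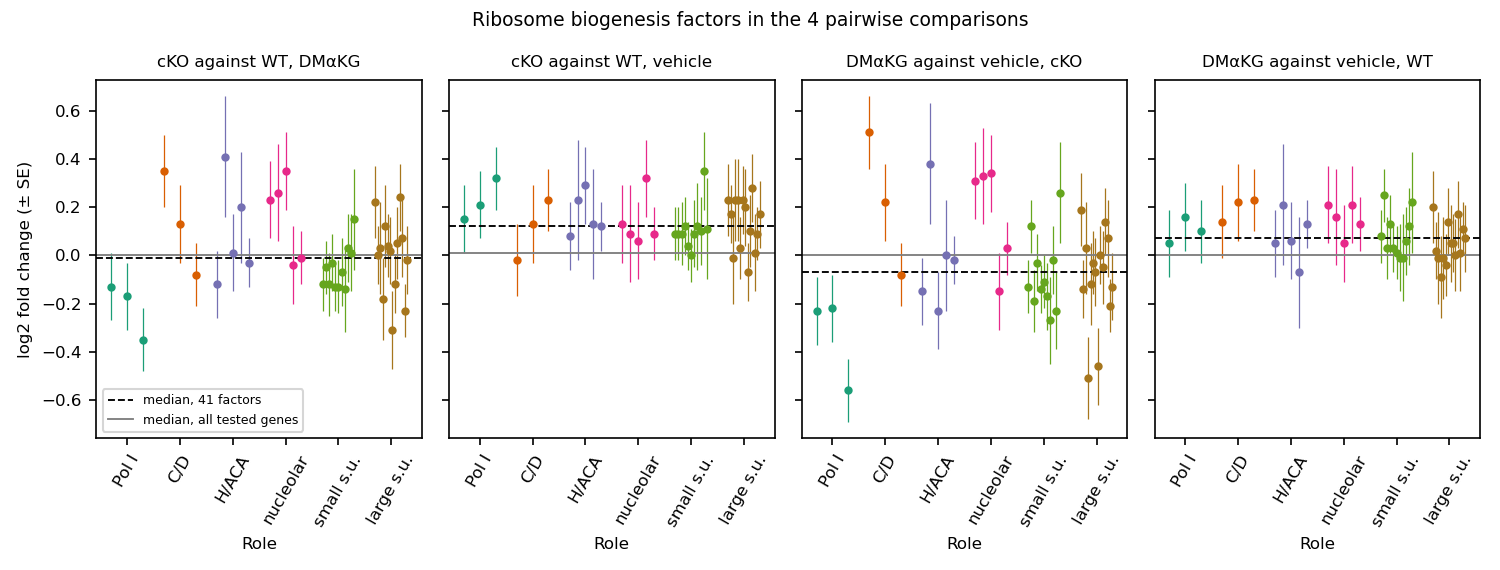
log2 fold change with SE for each of the 41 factors, by role, in the 4 pairwise comparisons, with the median of the factors (dashed) and of all tested genes (solid grey). In cKO against WT, 20 of 41 genes lie above 0 with DMαKG, where the RNA polymerase I subunits lie below 0, and 37 do with vehicle.

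When both genotypes drank DMαKG, the comparison of cKO with WT showed no common direction. Of the 41 factors 20 (48.8%) were above 0, against 50.0% of all tested genes, with a median of -0.01. The roles were spread: 3 of 3 RNA polymerase I subunits and 8 of 11 small subunit factors were below 0 (medians of -0.17 and -0.07), while the nucleolar and box C/D genes had medians of 0.23 and 0.13. At an edgeR adjusted p below 0.05 there were 0 of 41, where 0.186% of tested genes passed, and 0 by DESeq2 and by limma voom. At an unadjusted p below 0.05 there were 2 (4.88%, against 10.4% of tested genes), Nop56 above 0 and Cd3eap below. Groups did not overlap for 1 higher factor, Nop56, where 7.92% of tested genes were higher in this way, and for 2 lower ones, Cd3eap and Noc2l, where 7.04% were lower. Treg markers summed to 5644 to 6444 CPM in cKO DMαKG libraries, against 4199 to 5405 CPM in WT DMαKG libraries. Of these 7 markers 3 were above 0 and 4 below (median log2 fold change -0.05). Of 25 proliferation genes 22 were above 0 (median 0.29), and of 9 tested myeloid and dendritic markers 3 were (median -0.05). Their part in the result was not tested.

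Nop56 had 211, 211 and 247 CPM in cKO DMαKG libraries, against 204, 176 and 145 CPM in WT DMαKG libraries. Each cKO library was above the highest WT library, and the WT libraries were far apart. The log2 fold change was 0.35 (SE 0.15, 95% interval 0.03 to 0.67, unadjusted p = 0.0326, edgeR adjusted p = 0.418). Gnl3, a nucleolar GTP-binding protein, had 59.6, 70.2 and 78.2 CPM in cKO DMαKG libraries, against 64.4, 54.3 and 44.3 CPM in WT DMαKG libraries (0.35, adjusted p = 0.478). Its groups overlapped. Both values leaned on single libraries: without WT DMαKG replicate 3 they were 0.23 for Nop56 and 0.22 for Gnl3, and without cKO DMαKG replicate 3 they were 0.28 and 0.26. Cd3eap had 8.74, 8.66 and 8.39 CPM in cKO DMαKG libraries, against 10.4, 11.8 and 10.7 CPM in WT DMαKG libraries. All cKO libraries were thus below all WT libraries, the opposite order to that with vehicle, with a log2 fold change of -0.35 (SE 0.13, unadjusted p = 0.0165, edgeR adjusted p = 0.349). Noc2l had 120.5, 135 and 115 CPM in cKO DMαKG libraries, against 143, 145 and 149 CPM in WT DMαKG libraries. The groups did not overlap, and the log2 fold change was -0.23 (edgeR adjusted p = 0.486).

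The third comparison asked what DMαKG did in WT Tregs, and it shares its WT vehicle and WT DMαKG libraries with the comparisons above. Most factors stood slightly higher with DMαKG, and again none passed. Among the 41 factors 34 (82.9%) were above 0, against 49.8% of tested genes, with a median log2 fold change of 0.07 against 0.00. Medians by role ran from 0.03 for large subunit factors to 0.22 for box C/D proteins, with 3 of 3 box C/D genes and 5 of 5 nucleolar genes above 0. At an edgeR adjusted p below 0.05 there were 0 of 41, where 0.00% of tested genes passed, and DESeq2 and limma voom called 0 of 41. An unadjusted p below 0.05 was reached by 1 factor, Wdr43 (2.44%, against 2.73% of tested genes). Groups did not overlap for 5 higher factors (12.2%, against 4.59%), namely Fbl, Mybbp1a, Wdr43, Rrp12 and Mrto4, and for 0 lower ones (against 3.86%). Leaving out 1 library gave 25 to 38 factors above 0, the fewest without WT DMαKG replicate 3, and without the 3 libraries together on the first component 27 were above 0 with a median of 0.04. Treg markers were above 0 in 7 of 7 cases (median 0.19) and summed to 4199 to 5405 CPM in WT DMαKG libraries, against 4117 to 4211 CPM in WT vehicle libraries. Of 9 tested myeloid and dendritic markers 8 were below 0 (median -0.37), with sums of 38.4 to 107 CPM in WT DMαKG libraries, against 48.8 to 133 CPM in WT vehicle libraries, and 1 of 10 and 0 of 10 markers under 1 CPM throughout. Their part in the result was not tested.

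Wdr43 had 169, 162 and 143 CPM in WT DMαKG libraries, against 143, 129 and 126 CPM in WT vehicle libraries. The lowest DMαKG library and the highest vehicle library nearly met. The log2 fold change was 0.25 (SE 0.11, 95% interval 0.02 to 0.49, unadjusted p = 0.0376, edgeR adjusted p = 0.999). Fbl had 131, 129 and 112 CPM in WT DMαKG libraries, against 108, 105 and 104 CPM in WT vehicle libraries (0.23, adjusted p = 0.999). Its DMαKG libraries were all above its vehicle libraries. Below 0 were Nop2, a methyltransferase of large subunit ribosomal RNA, with 42.3, 43.1 and 61.3 CPM in WT DMαKG libraries, against 56.1, 47.6 and 52.3 CPM in WT vehicle libraries (-0.09, edgeR adjusted p = 0.999). Wdr74, a large subunit factor, had 25.7, 26.8 and 25.4 CPM in WT DMαKG libraries, against 29.3, 24.5 and 26.5 CPM in WT vehicle libraries (-0.04, adjusted p = 0.999). Both overlapped between the groups, and their values were 0.00 for Nop2 without WT DMαKG replicate 1 and 0.03 for Wdr74 without WT vehicle replicate 2.

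In cKO Tregs the factors showed no common direction with DMαKG. By role the values went both ways: 0 of 3 RNA polymerase I, 2 of 11 small subunit and 5 of 14 large subunit genes were above 0, against 2 of 3 box C/D and 4 of 5 nucleolar genes. No gene passed the edgeR test, and the roles themselves were not tested. The exceptions were Wdr43 (0.12) and Pno1 (0.26) among small subunit genes, Fbl (-0.08) in box C/D and Mybbp1a (-0.15) among nucleolar genes. Among large subunit genes they were Pes1 (0.19), Mrto4 (0.14), Ftsj3 (0.07), Wdr12 (0.03) and Ddx18 (0.00). Of the box H/ACA genes 1 of 5 was above 0, Nhp2 (0.38), and their median was -0.02. Of 41 factors 14 (34.1%) were above 0, against 50.4% of tested genes, with a median log2 fold change of -0.07 against 0.00. The medians were -0.23 for 3 RNA polymerase I subunits, -0.13 for small subunit factors and -0.06 for large subunit factors, and 0.31 for nucleolar and 0.22 for box C/D genes. At an edgeR adjusted p below 0.05 there were 0 of 41, where 0.00% of tested genes passed. DESeq2 called 2 of 41, Cd3eap and Nop56, where it called 389 of 12903 tested genes. For limma voom with sample quality weights it was 1 of 41, Cd3eap, and 450 of 12903. At an unadjusted p below 0.05 there were 4 (9.76%, against 17.3% of tested genes). Groups did not overlap for 2 higher factors, Nop56 and Gnl3 (4.88%, against 8.91%), and for 3 lower ones, Cd3eap, Nop2 and Rrs1 (7.32%, against 12.2%), so both shares were below those of all tested genes.

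**Figure D3:**
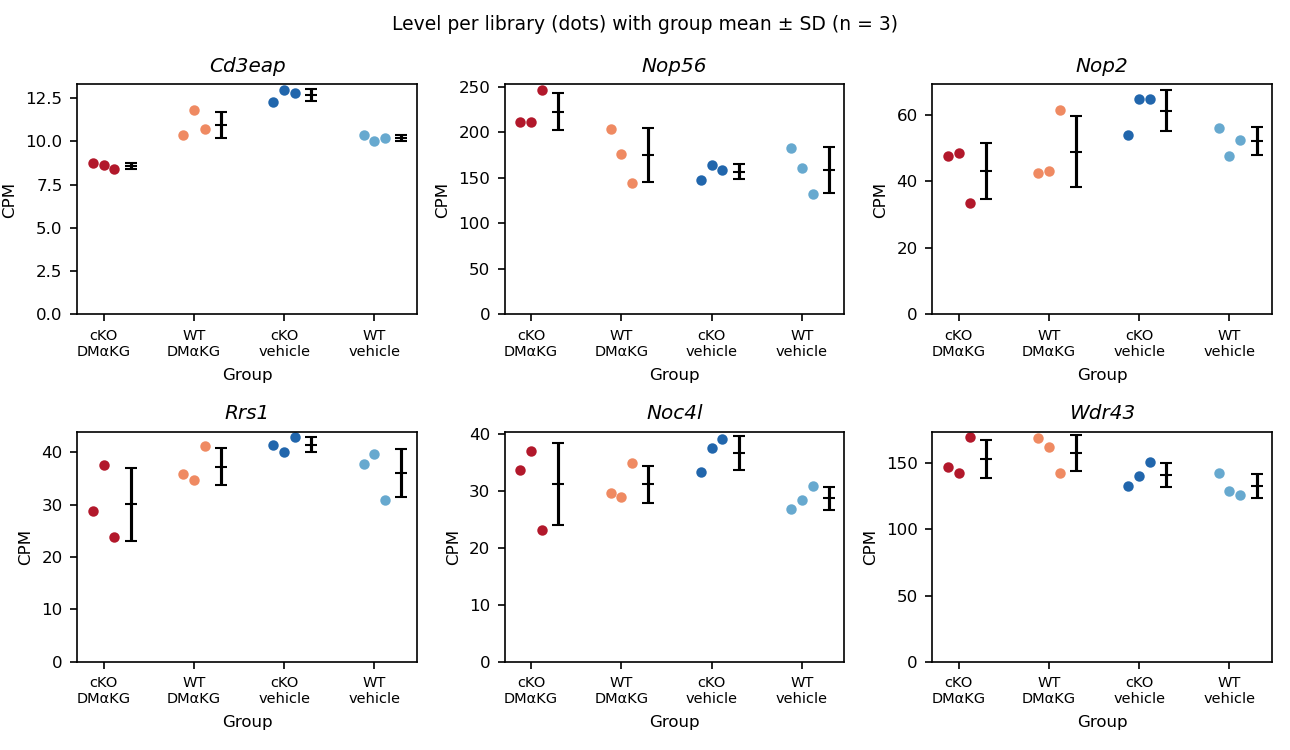
CPM of 6 factors in each library (dots), by group, with group mean and SD (n = 3). Cd3eap is lowest in cKO with DMαKG, at 8.39 to 8.74 CPM, and highest in cKO with vehicle, at 12.3 to 13.0 CPM, while Nop56 is highest in cKO with DMαKG, at 211 to 247 CPM.

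Cd3eap had 8.74, 8.66 and 8.39 CPM in cKO DMαKG libraries, against 12.3, 13.0 and 12.8 CPM in cKO vehicle libraries. These were the lowest and the highest of its 4 groups, with the WT libraries between them at 10.05 to 11.8 CPM. The log2 fold change was -0.56 (SE 0.13, 95% interval -0.84 to -0.29, unadjusted p = 0.000697, edgeR adjusted p = 0.132). DESeq2 gave -0.55 with an adjusted p of 0.0133, limma voom gave -0.56 with 0.0334, and over all alternatives the adjusted p ran from 0.0133 to 0.975. Leaving out any 1 library left the fold change between -0.59 and -0.53. Cd3eap overlaps Ercc1, whose own log2 fold change here was 0.02, and its estimated count was a whole number in 1 of 12 libraries.

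Nop56 had 211, 211 and 247 CPM in cKO DMαKG libraries, against 148, 164 and 159 CPM in cKO vehicle libraries. The groups lay well apart, with a log2 fold change of 0.51 (SE 0.15, 95% interval 0.19 to 0.83, unadjusted p = 0.00420, edgeR adjusted p = 0.156), while its neighbour Idh3b, which it overlaps, was at 0.01. DESeq2 gave 0.52 with an adjusted p of 0.0404. Gnl3 had 59.6, 70.2 and 78.2 CPM in cKO DMαKG libraries, against 54.1, 57.0 and 53.3 CPM in cKO vehicle libraries (0.34, edgeR adjusted p = 0.302). Its groups did not overlap, though the lowest DMαKG library was close to the vehicle libraries.

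Nop2 had 47.5, 48.4 and 33.3 CPM in cKO DMαKG libraries, against 54.0, 64.7 and 64.7 CPM in cKO vehicle libraries. Each DMαKG library was lower, replicate 3 by the most, and the log2 fold change was -0.51 (SE 0.17, unadjusted p = 0.0125, edgeR adjusted p = 0.201). Without cKO DMαKG replicate 3 it was -0.35 (adjusted p = 0.451). Rrs1, which helps to place ribosomal RNA and proteins in the large subunit, had 28.8, 37.6 and 23.8 CPM in cKO DMαKG libraries, against 41.4, 39.98 and 42.9 CPM in cKO vehicle libraries (-0.46, SE 0.16, edgeR adjusted p = 0.201). Here too the groups did not overlap and replicate 3 was lowest. For Cd3eap and Nop56 the fold changes without that replicate were -0.54 and 0.44.

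The count of 14 of 41 factors above 0 in this comparison rested on 1 library. Without cKO vehicle replicate 4 the median was 0.02 and 23 of 41 factors were above 0. Proliferation genes had a median log2 fold change of 0.58, 23 of 25 being above 0, and summed to 2748, 1772 and 1915 CPM in cKO DMαKG libraries, against 910.2, 1371 and 2344 CPM in cKO vehicle libraries. Myeloid and dendritic markers summed to 56.7 to 123 CPM in cKO DMαKG libraries, against 34.2 to 61.8 CPM in cKO vehicle libraries, with 1 of 10 and 3 of 10 markers under 1 CPM in all libraries of these groups. Treg markers summed to 5644 to 6444 CPM in cKO DMαKG libraries, against 3743 to 4570.2 CPM in cKO vehicle libraries. Of the 7 Treg markers 4 were above 0 and 3 below (median log2 fold change 0.12). Their part in the result was not tested.

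Whether the genotype difference changed with DMαKG was tested directly as an interaction, the cKO against WT difference with DMαKG minus that with vehicle. Of 41 factors 11 (26.8%) were above 0, against 48.7% of tested genes, with a median of -0.15 against -0.01. By role, the 3 RNA polymerase I subunits among these factors had the lowest median, -0.38. Below 0 were 10 of 11 small subunit and 11 of 14 large subunit factors. At an edgeR adjusted p below 0.05 there were 0 of 41, where 0.00% of tested genes passed, and DESeq2 and limma voom called 0 of 41. At an unadjusted p below 0.05 there were 2 (4.88%, against 3.64% of tested genes). These were Cd3eap, at -0.67 (SE 0.18, 95% interval -1.05 to -0.28, unadjusted p = 0.00260, edgeR adjusted p = 0.955), and Rrs1, at -0.51 (SE 0.23, unadjusted p = 0.0418, adjusted p = 0.955). Rrs1 had 28.8, 37.6 and 23.8 CPM in cKO DMαKG libraries, against 35.8, 34.6 and 41.2 CPM in WT DMαKG libraries, and 41.4, 39.98 and 42.9 CPM in cKO vehicle libraries, against 37.7, 39.6 and 30.8 CPM in WT vehicle libraries. Its genotype groups overlapped with DMαKG but not with vehicle. The set's median was -0.05 with 18 genes above 0 without the 3 libraries together on the first component, and the count was 2 without cKO DMαKG replicate 3 and 3 without cKO vehicle replicate 2.

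Genotype was also averaged over treatment, and treatment over genotype. For cKO against WT, 31 of 41 factors (75.6%, against 48.9% of tested genes) were above 0, with a median log2 fold change of 0.05. With edgeR 0 of 41 passed, where 1.01% of tested genes did, and at an unadjusted p below 0.05 there was 1, Mrto4, a large subunit factor (0.26, edgeR adjusted p = 0.285), against 12.8% of tested genes. DESeq2 called 0 of 41 and limma voom 1, Noc4l, where they called 398 and 1038 of 12903 tested genes. For DMαKG against vehicle 20 of 41 (48.8%, against 50.4%) were above 0, with a median of -0.03, and 0 of 41 passed, where 0.00775% of tested genes did. At an unadjusted p below 0.05 there were 5 (12.2%, against 15.9%): Nop56 at 0.32, Ncl at 0.26 and Wdr43 at 0.18 above 0, and Nop2 at -0.30 and Cd3eap at -0.23 below. DESeq2 called 0 of 41 in this comparison and limma voom 3, Nop56, Pno1 and Nop2. Of 12903 tested genes they called 331 and 1546. Without WT DMαKG replicate 3 edgeR called Nop56 (0.38, adjusted p = 0.0495), where 619 of 13112 tested genes passed.

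The remaining factors fall into place by role, each value being a log2 fold change that did not pass the edgeR test. Their lowest adjusted p in any comparison ran from 0.285 for Mrto4 to 0.944 for Wdr12. In RNA polymerase I, Polr1b, the second largest subunit, was at -0.17 in cKO against WT with DMαKG and at 0.21 with vehicle, and Polr1a was at -0.13 and 0.15 in the same comparisons. With DMαKG against vehicle, Polr1b was at -0.22 in cKO and 0.16 in WT, and Polr1a was at -0.23 and 0.05. These 3 subunits thus had opposite signs in the 2 treatments and in the 2 genotypes, which are comparisons that share libraries. Other subunits measured in these libraries did not all share this. Mean CPM in cKO and WT was 72.3 and 53.3 with vehicle and 74.0 and 56.1 with DMαKG for Polr1c. For Polr1d it was 101 and 97.7, then 111 and 98.0, so the means of both were higher in cKO in each treatment. In the same order the SDs were 13.9, 5.99, 15.2 and 5.05 CPM for Polr1c. For Polr1d they were 14.7, 9.34, 25.2 and 7.92 CPM. The order of means turned slightly for Polr1e (27.1 and 24.2, then 26.1 and 26.3) and Znrd1 (16.6 and 16.5, then 16.5 and 16.8). Their SDs ran from 0.801 to 5.80 CPM.

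Not all box C/D proteins did the same. Nop58 had values of 0.13 for cKO against WT both with DMαKG and with vehicle, and of 0.22 for DMαKG in both cKO and WT. Fbl, in contrast, was at -0.08 for cKO against WT with DMαKG and 0.23 with vehicle. In the box H/ACA particle Nhp2 was above 0 throughout, at 0.41 with DMαKG and 0.23 with vehicle for cKO against WT, and at 0.38 in cKO and 0.21 in WT for DMαKG. It had 44.7, 31.5 and 62.4 CPM in cKO DMαKG libraries, 40.2, 33.3 and 30.9 CPM in WT DMαKG libraries, 25.2, 33.6 and 47.5 CPM in cKO vehicle libraries, and 32.4, 27.0 and 31.1 CPM in WT vehicle libraries. All groups overlapped, and the highest library was cKO DMαKG replicate 3. Dkc1, the pseudouridine synthase at the centre of the particle, was at -0.12 and 0.08 for cKO against WT with DMαKG and with vehicle, and Gar1 was at 0.01 and 0.29. Nolc1, with a coefficient of variation of 6.69%, stayed between -0.03 and 0.13 in all 4 comparisons.

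Among the abundant nucleolar proteins Ncl and Npm1 were above 0 in all 4 comparisons, Ncl at 0.23 and 0.13 for cKO against WT with DMαKG and with vehicle and Npm1 at 0.26 and 0.09. For DMαKG against vehicle Ncl was at 0.31 in cKO and 0.21 in WT, and Npm1 at 0.33 and 0.16. Mybbp1a, a nucleolar protein known as a MYB-binding repressor, was at -0.04 with DMαKG and 0.32 with vehicle for cKO against WT. Ddx21, an RNA helicase that acts in both transcription and processing of ribosomal RNA, stayed between -0.01 and 0.13.

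Most small subunit factors were close to 0. Heatr1, Utp20, Nop14, Rrp12 and Tsr1 lay between -0.14 and 0.13 in the 4 comparisons. Heatr1, Utp20 and Nop14 belong to the early processome, Rrp12 helps export the subunits, and Tsr1 acts late, in the cytoplasm. Rrp9, a protein of the snoRNP at the heart of the processome, ran from -0.19 to 0.09. Bysl was lowest, at -0.27 for DMαKG in cKO, and Pno1, which works with the nuclease Nob1 late in assembly, was highest of those not yet described, at 0.26 in the same comparison. Nob1 itself was at -0.17 there, so these partners did not share a sign.

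Large subunit factors were as mixed. Pes1, Bop1 and Wdr12 form one complex, known as PeBoW, yet Pes1 was at 0.22 and 0.23 for cKO against WT with DMαKG and with vehicle, Bop1 at 0.00 and 0.17, and Wdr12 at 0.03 and -0.01. Mean levels of the 3 were 85.0 TPM for Pes1, 61.9 TPM for Bop1 and 21.1 TPM for Wdr12. Mrto4, which holds the place of a stalk protein in the immature subunit, was above 0 in all 4, between 0.14 and 0.28. Nop16, Rrp1b and Grwd1 were at 0.23, 0.23 and 0.17 for cKO against WT with vehicle, and at 0.12, 0.02 and -0.02 with DMαKG. Ftsj3 and Ebna1bp2 stayed between -0.05 and 0.10 in the 4 comparisons.

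The small differences are bounded by the error of the measurements. In each of the 4 pairwise comparisons the 95% interval of the log2 fold change lay within 1 of 0 for all 41 factors. In the interaction it did so for all but Cd3eap. A p above the threshold does not show that the groups are alike, but differences of more than 2-fold between groups lie outside those intervals.

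**Figure D4:**
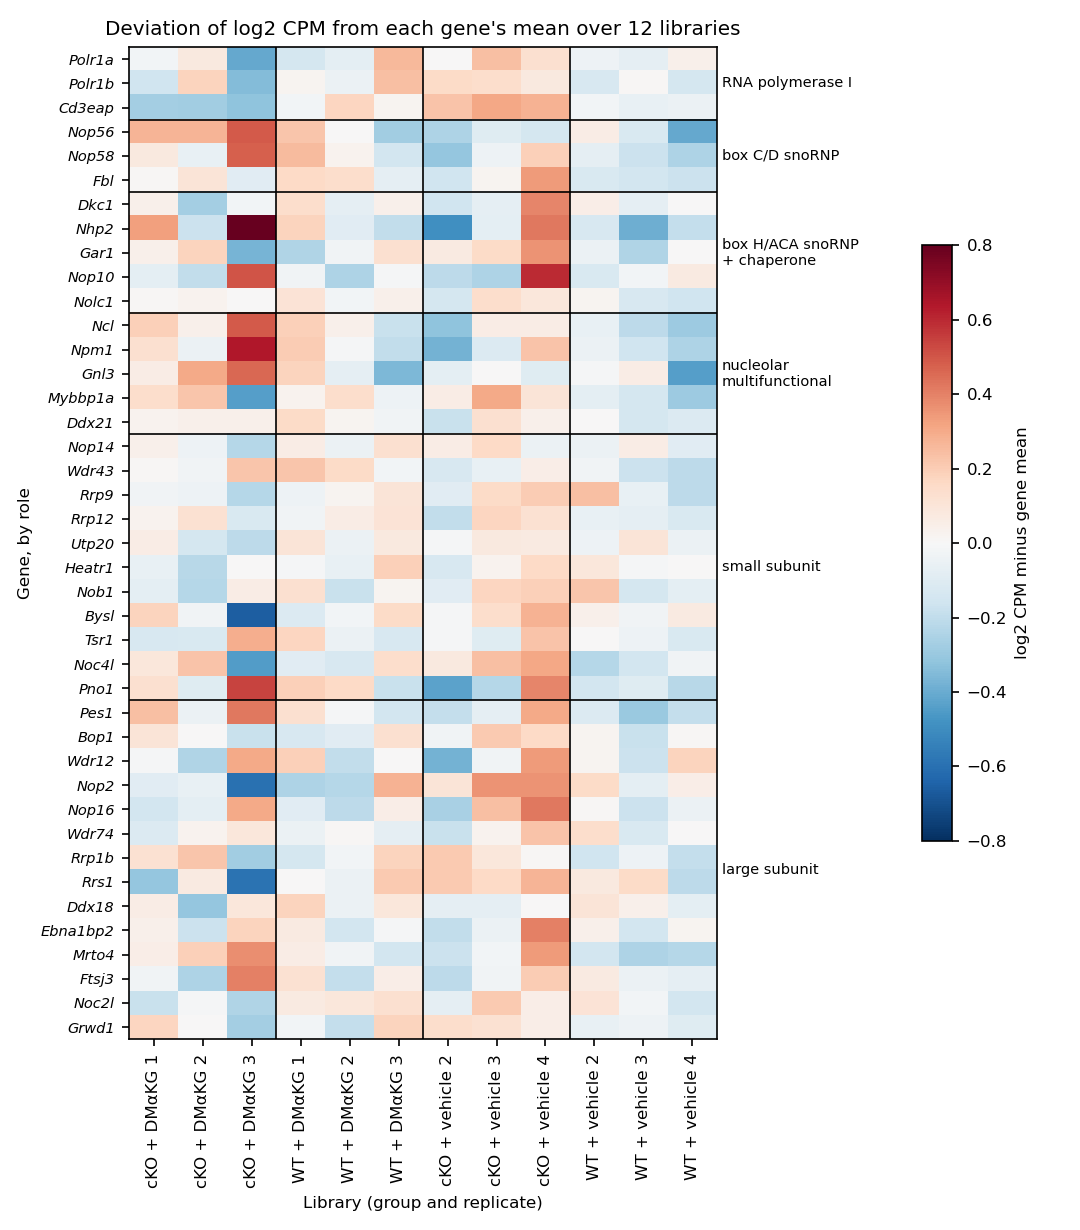
Heat map of log2 CPM minus each gene's own mean over 12 libraries (colour), for 41 factors by role (rows) and libraries by group (columns). The column of cKO DMαKG replicate 3 holds both strong red and strong blue cells, from 0.81 for Nhp2 to -0.66 for Bysl, and that of cKO vehicle replicate 4 is mostly red.

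Libraries of the same group also differed. The mean deviation over the 41 factors, on the log2 scale, was 0.02, -0.02 and 0.03 in cKO DMαKG libraries, 0.05, -0.04 and 0.02 in WT DMαKG libraries, -0.10, 0.07 and 0.20 in cKO vehicle libraries, and -0.01, -0.10 and -0.12 in WT vehicle libraries. The pooled SD between replicates was 0.08. The cKO vehicle group thus held both the highest library, replicate 4, with 38 of 41 factors above their own mean, and one of the low ones, replicate 2, with 10 of 41. In cKO DMαKG replicate 3 the mean was near 0 because genes split: 12 factors had their highest and 16 their lowest value of all libraries there. Over the 41 factors the deviation in that library had r = -0.34 with log2 transcript length, and that in cKO vehicle replicate 4 r = -0.51, while in the other libraries r ran from 0.01 to 0.32. These are descriptions over genes of single libraries.

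The factors varied together only in part. Over the 12 libraries the median correlation of log2 CPM between factors was 0.26, and 0.25 after removal of group means, with 532 of 820 pairs above 0 and a range from -0.70 to 0.98. Of 41 factors 39 had a correlation above 0 with the mean of the others. Nolc1, the snoRNP chaperone, was highest at 0.84, and Rrp1b and Nop14 were lowest at -0.04 and -0.01. All of these share the libraries and their scaling.

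**Figure D5:**
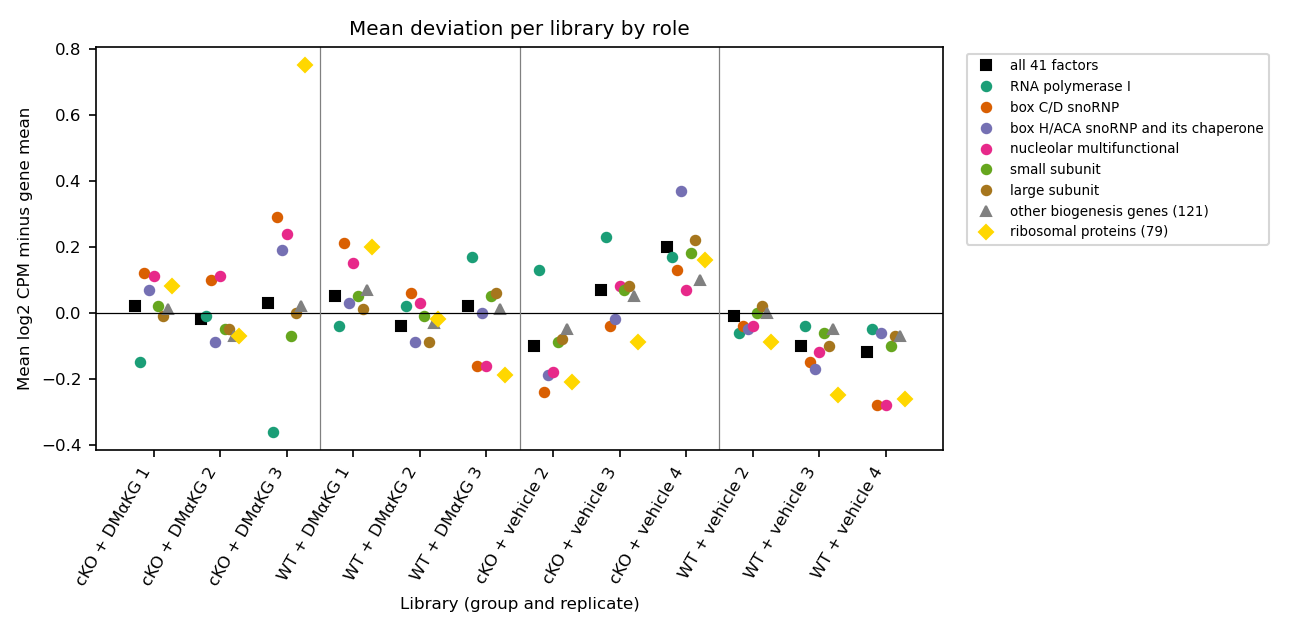
Mean log2 CPM minus gene mean in each library (x axis, by group) for all 41 factors, for each role, for 121 other ribosome biogenesis genes and for 79 ribosomal protein genes. Ribosomal protein genes stand at 0.75 in cKO DMαKG replicate 3, where RNA polymerase I subunits stand at -0.36.

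Differences between roles were not tested and are described here by library. In cKO DMαKG replicate 3, where 79 ribosomal protein genes stood at a mean deviation of 0.75, box C/D, nucleolar and box H/ACA genes stood at 0.29, 0.24 and 0.19, large and small subunit factors at 0.00 and -0.07, and RNA polymerase I subunits at -0.36. In cKO vehicle replicate 4, where ribosomal protein genes stood at 0.16, each role was above 0, between 0.07 and 0.37. The 3 RNA polymerase I subunits among the factors stood at 0.13, 0.23 and 0.17 in cKO vehicle libraries. In WT vehicle libraries they stood at -0.06, -0.04 and -0.05. With DMαKG they stood at -0.15, -0.01 and -0.36 in cKO libraries and at -0.04, 0.02 and 0.17 in WT libraries. Their cKO libraries were thus all above the WT libraries with vehicle, while with DMαKG the groups overlapped.

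A list of 121 further ribosome biogenesis genes, none of them among the 41, was measured in the same libraries, so its values are not independent of those above. Of these 50 were above 0 in cKO against WT with DMαKG (median log2 fold change -0.02), 92 in cKO against WT with vehicle (0.07), 49 with DMαKG in cKO (-0.05) and 78 with DMαKG in WT (0.06), and in the interaction 35 were above 0 (-0.10). With edgeR 0 of 121 passed in any of these. Those at an unadjusted p below 0.05 were 2 higher and 4 lower, 7 higher and 0 lower, 5 higher and 13 lower, 3 higher and 0 lower, and 0 higher and 6 lower, in the same order. Together these are 4.96%, 5.79%, 14.9%, 2.48% and 4.96% of the list, against 10.4%, 7.29%, 17.3%, 2.73% and 3.64% of all tested genes. Without cKO vehicle replicate 4 the count above 0 was 68 with vehicle (median 0.02) and 63 with DMαKG in cKO (0.01). Naf1, an assembly factor of box H/ACA particles, had 23.2, 29.7 and 27.2 CPM in cKO vehicle libraries, against 19.3, 18.9 and 18.0 CPM in WT vehicle libraries. The groups did not overlap (0.51, edgeR adjusted p = 0.238). Rrp8, a nucleolar methyltransferase, had 23.4, 20.5 and 18.1 CPM in cKO DMαKG libraries, against 27.5, 26.6 and 30.5 CPM in cKO vehicle libraries (-0.45, edgeR adjusted p = 0.156). All of its DMαKG libraries were below its vehicle libraries.

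Of 11 genes of the MYC network 9 were tested, and none passed the edgeR threshold in any comparison. With DMαKG in cKO 5 of the 9 were above 0 and 4 below. Their median log2 fold change there was 0.01, with a range from -0.79 to 0.60, so Myc and Max do not stand for the network. Myc itself had 103, 129 and 47.6 CPM in cKO DMαKG libraries, against 142, 216 and 125 CPM in cKO vehicle libraries. The groups overlapped narrowly, and the lowest library was again cKO DMαKG replicate 3 (log2 fold change -0.79, SE 0.32, unadjusted p = 0.0292, edgeR adjusted p = 0.244). Without that library the value was -0.47, and without cKO vehicle replicate 3 it was -0.51. With DMαKG, Myc had 136, 142 and 112 CPM in WT libraries, and the cKO against WT difference was -0.48 (adjusted p = 0.633), or -0.16 without cKO DMαKG replicate 3 and -0.77 without cKO DMαKG replicate 2. With vehicle it had 144, 118 and 95.5 CPM in WT libraries, with a difference of 0.43 (adjusted p = 0.876), or 0.16 without cKO vehicle replicate 3. Max, its partner, had 98.3, 101 and 86.4 CPM in cKO DMαKG libraries, against 119, 135 and 128 CPM in cKO vehicle libraries (-0.42, edgeR adjusted p = 0.169). Its groups did not overlap.

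Values for the ribosomal proteins, which these factors assemble, leaned on single libraries. Of 79 ribosomal protein genes tested, 79 were above 0 in cKO against WT with DMαKG (median log2 fold change 0.31), 77 in cKO against WT with vehicle (0.16), 78 with DMαKG in cKO (0.36) and 78 with DMαKG in WT (0.20), where 50.0%, 51.6%, 50.4% and 49.8% of all tested genes were. With edgeR 0 of 79 passed in each, and the numbers at an unadjusted p below 0.05 were 0, 2, 4 and 1. These are 0.00%, 2.53%, 5.06% and 1.27% of the list, against 10.4%, 7.29%, 17.3% and 2.73% of all tested genes. Without cKO DMαKG replicate 3, 46 of 79 were above 0 in cKO against WT with DMαKG (median 0.00) and 63 with DMαKG in cKO (0.05). Without the 3 libraries together on the first component, 41 were above 0 in cKO against WT with vehicle (0.00). Without WT DMαKG replicate 1 the median with DMαKG in WT was 0.08. Other omissions raised the values. Without cKO DMαKG replicate 2 the medians were 0.50 in cKO against WT with DMαKG and 0.55 with DMαKG in cKO. An unadjusted edgeR p below 0.05 was then reached by 55 (69.6%) and 61 (77.2%) of 79, and 0 passed after adjustment. The matching share of all tested genes was not counted.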

How the data were processed

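The authors deposited 1 table with estimated counts, FPKM and TPM per gene and library, per the file headers. Per the submitters' processing notes, mm10 was the build, and the tools listed, without their roles, were DESeq2 1.16.1, featureCounts 1.5.0-p3 and HISAT2 2.0.5. Of the deposited estimated counts 36.0% were not whole, although the tests had been planned for whole counts, so they were rounded. The FPKM that the authors deposited went into no value here except to gauge transcript length, and the TPM that the authors deposited serve for levels between genes. The groups come from the labels, and p-values rest on 3 mice per group.

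Tests used edgeR 4.0.16 in R 4.3.3 (filterByExpr, TMM, robust quasi-likelihood fit, 1 mean per group over 12 libraries, 8 residual degrees of freedom). P-values were Benjamini-Hochberg adjusted over 12903 genes, threshold 0.05. The median SE of a factor's log2 fold change between groups with vehicle was 0.14. Alternatives used DESeq2 1.42.0, limma 3.58.1, other scalings, filters, covariates and left-out libraries. Coordinates come from RefSeq GRCm38.p6, the build that mm10 names, where 17901 gene IDs matched.

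The factors, lists and tests were chosen with earlier results of these data known, so no p is given for a list. Values in every library are given for the 2 factors per direction with the smallest p in each pairwise comparison, 2 in the interaction, and the most abundant per role, plus factors named for a small count, chosen after their values were seen.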

Additional observations from a re-analysis of the deposited data

Results flagged for a closer look

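Cd3eap, the RNA polymerase I subunit, was picked from the 41 factors because the cKO and WT libraries did not overlap in either treatment, but in opposite directions. Taken singly, 8.29% of tested genes were higher in cKO without overlap with vehicle, and 7.04% were lower with DMαKG. The share of tested genes that do both was not counted. With DMαKG it had 8.74, 8.66 and 8.39 CPM in cKO libraries, against 10.4, 11.8 and 10.7 CPM in WT libraries. With vehicle it had 12.3, 13.0 and 12.8 CPM in cKO libraries, against 10.4, 10.05 and 10.2 CPM in WT libraries. The test of the difference, the interaction, gave a log2 value of -0.67 (edgeR unadjusted p = 0.00260, adjusted p = 0.955), which did not pass. The lowest adjusted p over the alternatives was 0.309.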

How the results depend on the processing

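With edgeR's quasi-likelihood test 0 of 41 factors passed in the 4 pairwise comparisons and the interaction under every scaling, filter, covariate and left-out library tried. DESeq2 called 2 factors and limma voom 1 for DMαKG against vehicle in cKO, where they called 389 and 450 of 12903 tested genes. For the averaged comparisons limma voom called 1 for cKO against WT and 3 for DMαKG against vehicle, where leaving out each library gave 0 to 1 (Nop56 without WT DMαKG replicate 3, adjusted p = 0.0495). Without the 3 libraries together on the first component, the median and the number above 0 were 0.02 and 22 for cKO against WT with vehicle, 0.04 and 23 for DMαKG against vehicle in cKO, and -0.05 and 18 for the interaction. With Y-linked expression as a covariate 5 factors were above 0 in the interaction. Leaving out each library in turn gave medians of -0.13 to 0.02 and 10 to 23 factors above 0 for DMαKG against vehicle in cKO, and 2 to 16 above 0 for the interaction (3 without cKO vehicle replicate 2). The E-box share was 5.56% before the start alone. Of 430 values of named factors 421 kept direction and side of the threshold, 3 passed and 6 turned: Nop56 in cKO against WT with vehicle (0.03 with the Y-linked covariate, -0.14 to 0.10 leaving out libraries), Nop2 (-0.28 to 0.00) and Wdr74 (-0.10 to 0.03) with DMαKG in WT. The causes were not tested.

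Deviations of same-numbered libraries had correlations of -0.28 to 0.47, the highest for replicate 4 of cKO and WT vehicle. The correlations were not all above 0.1 and the labels give the numbers no shared litter or day, so the libraries were not treated as pairs. With the replicate number as a block 0 of 41 factors passed in any comparison, the medians were 0.11, -0.02, 0.09, -0.04 and -0.15 for the genotype comparisons with vehicle and DMαKG, DMαKG in WT and in cKO, and the interaction, and Wdr74 with DMαKG in WT turned to 0.03. Over all genes, counts of calls depended on the tool: for cKO against WT with vehicle edgeR called 8, DESeq2 100 and limma voom 245, with DMαKG 24, 143 and 237, for DMαKG in cKO 0, 389 and 450, and for the averaged genotype and DMαKG comparisons 130, 398 and 1038 and 1, 331 and 1546. Without robust moderation, an alternative chosen after seeing the data, edgeR called 3 genes with vehicle and 9 with DMαKG, none of them a factor. Leaving out libraries for the other gene lists and for Myc, Max, Naf1 and Rrp8 was likewise chosen after seeing the data. At 3 libraries a group and an SE near 0.14, differences of the size seen here are mostly within error.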
